A study of Mus musculus with 12 samples.

Results

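The genes that make and use PIWI-interacting RNAs (piRNAs) were followed in the testes of F1 mice from a study of lncRNA5251, a long non-coding RNA. The 10 genes, named with earlier results of these data known, were found by their symbols. They were the PIWI proteins Piwil1, Piwil2 and Piwil4, the piRNA biogenesis factors Pld6, Mov10l1 and Asz1, the Tudor domain proteins Tdrd1 and Tdrd6, and the germ granule proteins Ddx4 and Mael. Each had 1 row among the 20788 genes of the table, and all 10 were among the 16388 genes with enough reads to be tested. RNA-seq was made of 12 testis libraries from ICR mice (written IRC in the labels) aged 8 weeks, in 4 groups of 3. The sires had received lentivirus in the testis at 4 weeks of age, per the methods section, and the dams were untreated. The 3NC sires received the LV3 control, for which the study lists a negative-control shRNA, and the knockdown sires received LV3 with 3 mixed shRNAs against lncRNA5251. The 5NC sires received the LV5 vector alone, and the overexpression sires received LV5 with the full-length lncRNA5251. The series' own design text says instead that the F1 testes were transfected, so whether the tested animals carried virus cannot be told from these sources. No row of the table was matched to lncRNA5251, so its knockdown and overexpression were not checked in these libraries. Which testis cells the virus reached was not analysed here, and whether the 3 libraries of each group are 3 animals is not in the labels, which means that a p-value here covers the variation among libraries, perhaps only technical.

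piRNAs are small RNAs that guide PIWI proteins to transposon transcripts and, in meiotic and post-meiotic male germ cells, to other RNAs. Long precursor transcripts are cut by the mitochondrial nuclease PLD6 and unwound with help from the helicase MOV10L1, and the PIWI proteins that receive the products carry methylated arginines that are bound by Tudor domain proteins. These proteins gather in perinuclear germ granules such as the intermitochondrial cement and the chromatoid body, where DDX4 (the mouse VASA homologue) is found. Loss of genes of this pathway is known to stop spermatogenesis in male mice.

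Because these genes are used together in the germline, the letters before their starts were compared in the RefSeq promoters of GRCm38.p6, the same assembly as the mm10 build of the data. 8 of the 10 genes had an entry (12 starts in all), and for Piwil2 and Tdrd6 there was none. In the 250 bases before the start, CACGTG, the palindromic E-box that reads alike on both strands and is bound by basic helix-loop-helix proteins such as MAX, was found in 6 of the 8 genes: Piwil1, Pld6, Mov10l1, Tdrd1, Ddx4 and Mael. It was present at 7 of the 12 starts, against 6.02% of all 32851 promoters and 9.37% of the 12417 promoters with at least 10 CpG, a limit chosen after the data were examined. A pair of the Tdrd1 starts counted among the 7 shares the same box. 10 of the 12 starts of these genes reached that CpG count. Of 22 other piRNA genes with an entry, 4 had the E-box, and of all 27025 genes 6.86% did. Each E-box is shown in capitals with up to 12 bases on either side, 5′ to 3′ on the gene's strand. It was found in more of these genes than any other motif looked for.
Piwil1 first: aaaaccgccaccCACGTGgcagccaatcag
Piwil1 second: atcagggcccagCACGTGtccacctcgccg
Pld6: ggggcgggctggCACGTGttgggcgcgcaa
Mov10l1: ccttCACGTGctaaccgccaac
Tdrd1: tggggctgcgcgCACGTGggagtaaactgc
Ddx4: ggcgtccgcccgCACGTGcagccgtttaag
Mael: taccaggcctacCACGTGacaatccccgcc

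These windows lie at chr5:128736055-128736084 and chr5:128736080-128736109 (plus strand) for Piwil1, chr11:59787673-59787702 (minus) for Pld6, chr15:88982744-88982765 (plus) for Mov10l1, chr19:56826186-56826215 (plus) for Tdrd1, chr13:112652322-112652351 (minus) for Ddx4 and chr1:166238950-166238979 (minus) for Mael. The E-box began 33 bases before the RefSeq start in Pld6, 29 in Ddx4, and 77 and 11 before a pair of alternative starts in Tdrd1. The RefSeq start used here lies inside the annotated gene for Ddx4, Tdrd1, Piwil1 and Mov10l1. The boxes of Ddx4 and Tdrd1 and the second of Piwil1 lie inside the gene positions given further on, the first of Piwil1 overlaps the annotated start, and that of Mov10l1 lies before it. The E-box lay farther away in Piwil1 (179 and 154 bases), Mael (223 bases) and Mov10l1 (246 bases). 3 other motifs were looked for on both strands. TAACNG, a core of the sites bound by MYB proteins such as the meiotic regulator MYBL1, was found in Piwil1 and Mov10l1 (2 matches each) and in 19.8% of all promoters. GCGGGA, a core of E2F sites, was found in Ddx4 and Mael and in 16.9% of all promoters, and TGACGTCA, the cAMP response element, in none of the 12 starts and in 1.55% of all. The promoter of Mael, whose start is the annotated gene end on the minus strand (chr1:166238745-166238994), is given whole with the E-box and the E2F letters (TCCCGC on this strand) in capitals.
Mael: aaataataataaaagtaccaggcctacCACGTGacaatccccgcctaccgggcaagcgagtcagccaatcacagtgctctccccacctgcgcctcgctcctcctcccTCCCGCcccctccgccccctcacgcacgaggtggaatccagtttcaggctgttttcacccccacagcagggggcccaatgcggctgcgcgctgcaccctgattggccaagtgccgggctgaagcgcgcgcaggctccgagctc
These matches describe the sequence only, and no binding was measured.

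Depth was 12719699 to 15771655 estimated reads per library, with the fewest in overexpression replicate 3 and 5NC replicates 3 and 2. Markers of every germ cell stage, from spermatogonia (summed CPM of 116 to 144) to elongating spermatids (17050 to 23890), were detected in each library of this adult testis. The 12 macrophage markers summed to 532 CPM in 3NC replicate 2 and 700.1 in knockdown replicate 1, against 113 to 156 in the other 10 libraries, with none of the 12 at 0 in any library. The 8 early spermatocyte markers stood at 1234 to 1434 CPM in 3NC replicate 3, 5NC replicates 2 and 3 and overexpression replicate 3, against 908 to 1068 in the other 8. 3 of these 4 are also the 3 libraries with the fewest reads. In whole testis, fewer cells of a type and less RNA per cell cannot be told apart.

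The 10 genes spanned a wide range of levels. Compared per length in RPKM (reads scaled for gene length and library size, as deposited), Mael had the highest level, with a median of 965 RPKM over the 12 libraries (range 886 to 1020), which placed it above 99.8% of the tested genes. Mael encodes the HMG-box protein MAELSTROM, needed for transposon silencing and meiosis. Ddx4 followed with 234 RPKM (227 to 293), then Tdrd6 with 122 (115 to 136) and Piwil1 with 102 (85.0 to 112). Up to this point no gene's range overlapped that of the next. Tdrd1 (41.4 RPKM, range 36.0 to 44.7) and Piwil2 (40.0, range 35.6 to 42.9) did not differ beyond their spread, since Tdrd1 was above Piwil2 in only 7 of the 12 libraries. Pld6 (24.8 RPKM), Mov10l1 (21.9) and Asz1 (17.6) had overlapping ranges, although Mov10l1 was above Asz1 in all 12 libraries and Pld6 above Mov10l1 in 9. Piwil4, the nuclear PIWI protein of fetal and newborn germ cells, was close to the limit of detection with a median of 0.2 RPKM (0.11 to 0.38). The order of the highest 4 genes, Mael, Ddx4, Tdrd6 and Piwil1, held in all 12 libraries.

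**Figure D1:**
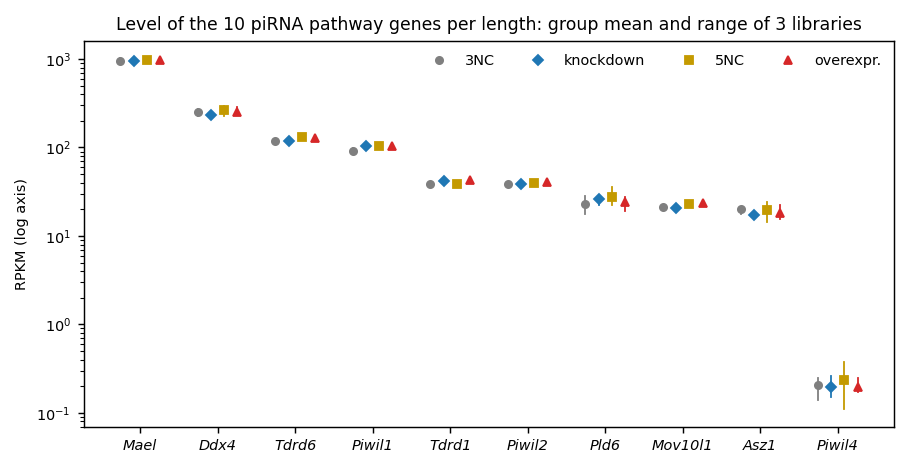
Level per length (RPKM, log axis) of each gene in the 4 groups, with symbols for the group mean and lines for the range of 3 libraries. Mael stands highest at a median of 965 RPKM and Piwil4 lowest at 0.2 RPKM, and for each gene the 4 groups lie close together.

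The deposited RPKM implied almost the same gene length in every library for most of the genes (6936 to 6979 bases for Tdrd6), but lengths of 3696 to 4022 bases for Mov10l1 1436 to 1610 for Asz1 and 2602 to 3318 for the few reads of Piwil4. For these 3 genes the deposited counts and RPKM thus moved apart between libraries. Groups were compared on the counts, and levels between libraries are given as CPM (counts scaled for library size only, with TMM factors).

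Knockdown of lncRNA5251 in the sires was compared with its control virus, knockdown against 3NC, to ask whether the piRNA pathway differed in the offspring's testes. None of the 10 genes passed the test. By edgeR's quasi-likelihood test with Benjamini-Hochberg adjustment, 0 of 10 genes had an adjusted p under 0.05 and 0 of 10 an unadjusted p under 0.05, where the share of all 16388 genes that did so was 0% and 5.64%. DESeq2 and limma also called 0, with Piwil4 tested by limma only where no RPKM filter was used. For none of the 10 were the 6 libraries separated by group in CPM scaled by TMM, against 11.3% of all genes. On other scales 2 of 10 were separated, Mov10l1 and Tdrd1 in CPM with no scaling factor (11.8% of all genes) and Asz1 and Tdrd1 in deposited RPKM (11.8%). The median log2 fold change of the 10 genes was 0.00 against -0.02 for all tested genes, and their median absolute change was 0.09 against 0.15. All but Piwil4 were at or above the 70.5th percentile of RPKM, and whether their coverage made this measure smaller was not tested.

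The overexpression group, compared with 5NC, also had 0 of 10 genes with an adjusted p under 0.05 by edgeR, where 51 genes (0.311%) passed over the whole table. DESeq2 called 328 genes, and likewise 0 of the 10. Limma-trend on log2(RPKM + 0.1) called 82 genes and none of the members it tested. Piwil4 was left out of that fit, which kept genes of at least 0.5 RPKM in 3 libraries. 1 of 10, Tdrd1, had an unadjusted p under 0.05, against 11.9% of all genes. The groups did not overlap for 2 of 10, Tdrd1 and Mov10l1, both higher in the overexpression group, against 21.3% of all genes. This held only in CPM scaled by TMM, and the count was 0 of 10 in CPM with no scaling factor (22.1% of all genes) and in deposited RPKM (21.7%). The 1 of 10 by unadjusted p and the 2 of 10 by overlap were close to the shares over the whole table. The median log2 fold change was 0.03 against -0.01 for all tested genes. For these 10 genes the median absolute change was 0.08, against 0.16 over the table, with the same limit on coverage.

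**Figure D2:**
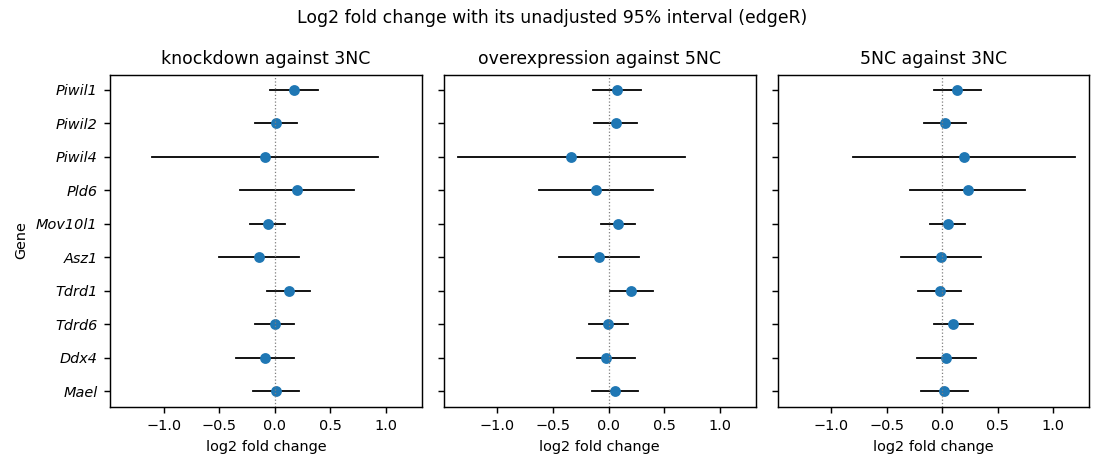
Log2 fold change (points) and unadjusted 95% interval (lines) of each gene in the 3 comparisons of groups, from edgeR's quasi-likelihood fit. Every interval includes 0 except that of Tdrd1 in overexpression against 5NC (0.01 to 0.40), and the widest intervals are those of Piwil4, which was covered by 5 to 17 reads per library.

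The virus controls, 5NC against 3NC, show how far the 2 groups of control virus stood apart. 0 of 10 genes passed the adjusted or the unadjusted p (0.128% and 10.8% of all genes did, by edgeR), and 0 of 10 had groups that did not overlap, against 13% of all genes. With no scaling factor or in RPKM, 3 of 10 did not overlap (Piwil1, Mov10l1 and Tdrd6, against 14.7% and 14.3% of all genes). 8 of the 10 values were positive, against 46% of all tested genes, with a median log2 fold change of 0.04 against -0.02. This comparison shares its 5NC libraries with the overexpression comparison and its 3NC libraries with the knockdown comparison. The 2 treatment effects were also subtracted from each other in the same model. 0 of 10 genes passed (0.0244% of all genes had an adjusted p under 0.05), 0 of 10 had an unadjusted p under 0.05 (4.63% of all), and the smallest unadjusted p was 0.166, for Mov10l1 (difference of log2 fold changes -0.15 ± 0.10, SE).

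**Figure D3:**
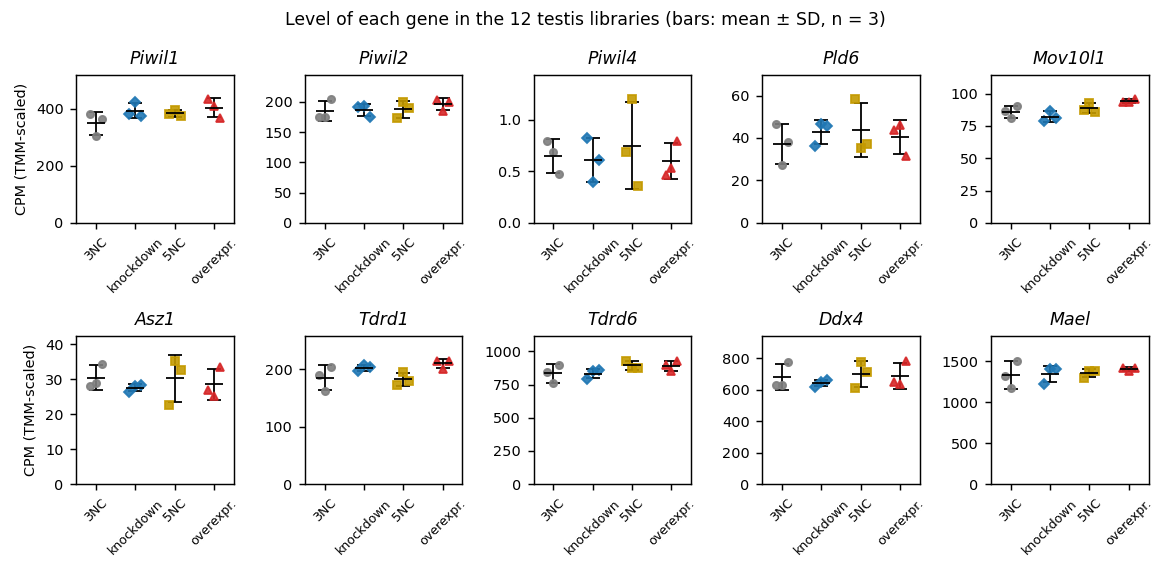
CPM of each gene in the 12 libraries, 1 symbol per library, with the mean ± SD of the 3 libraries of each group and axes that start at 0. On this scale the groups overlap for every gene in every comparison except Tdrd1 and Mov10l1 in overexpression against 5NC, and the replicates of Pld6 and Piwil4 lie widest apart.

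Among the PIWI proteins, Piwil1 (MIWI, the slicer of pachytene piRNAs in late spermatocytes and round spermatids; chr5:128736071-128755474) was at 381, 304 and 364 CPM in 3NC and at 382, 423 and 374 CPM in the knockdown group. The 3NC library with the lowest value, replicate 2, was the lowest of all 12, replicate 3 was also below all 3 knockdown libraries, and replicate 1 lay within their range. The log2 fold change in the knockdown group was 0.17 ± 0.10 (SE), with an interval of 0.97-fold to 1.31-fold and an adjusted p of 0.764 (edgeR). Without 3NC replicate 2 it was 0.08, and without both libraries with high macrophage markers it was 0.10. With the macrophage sum as a term, an alternative chosen after the data were examined, it was 0.20 (unadjusted p 0.0412, edgeR), and the adjusted p over 19 alternative settings ran from 0.368 to 1. In 5NC Piwil1 stood at 380.1, 396 and 375 CPM and in the overexpression group at 433, 410.3 and 368 CPM. The highest 2 of these 6 values were in the overexpression group, and so was the lowest. The interval of the overexpression change was 0.907-fold to 1.22-fold.

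Piwil2 (MILI, which acts from the fetal germline through meiosis; chr14:70372477-70436898) was one of the steadiest genes, with a highest CPM only 1.18 times the lowest over the 12 libraries (173 to 204). Its intervals reached from 0.882-fold to 1.15-fold in the knockdown group and from 0.915-fold to 1.19-fold in the overexpression group, so larger shifts than these in its RNA lay outside the 95% intervals. Piwil4 (MIWI2; chr9:14701776-14740672) had 5 to 17 reads per library and 0.358 to 1.20 CPM, and counting error alone was 44.7% at the lowest count. Its intervals (0.464-fold to 1.90-fold in the knockdown group, 0.391-fold to 1.61-fold in the overexpression group) leave a large change undetectable at this depth. An antisense gene, Gm10706, overlaps 137 exonic bases of Piwil4, and no source used here says whether the libraries kept strand, so some of these few reads may belong to it.

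Of the biogenesis factors, Mov10l1 (chr15:88982891-89055152), the helicase that binds piRNA precursors, was at 87.2, 93.2 and 86.1 CPM in 5NC and at 93.3, 93.8 and 95.7 CPM in the overexpression group. All 3 overexpression libraries were above all 3 controls by a gap of 0.16 CPM, but in deposited RPKM the groups overlapped, at 22.1 to 24.1 in 5NC and 22.8 to 23.9 in the overexpression group. The log2 fold change was 0.09 ± 0.07 (SE), with an interval of 0.952-fold to 1.18-fold and an adjusted p of 0.702 (edgeR). In 3NC the gene stood at 86.4, 81.0 and 90.4 CPM and in the knockdown group at 78.9, 86.6 and 81.3 CPM, where the groups overlapped and the interval was 0.859-fold to 1.07-fold. Asz1 (GASZ, an ankyrin-repeat protein of the intermitochondrial cement; chr6:18050964-18109061) was at 28, 28.9 and 34.5 CPM in 3NC, 26.4, 28.1 and 28.4 in the knockdown group, 22.8, 35.4 and 32.7 in 5NC and 27.0, 25.1 and 33.6 in the overexpression group. In each group but the knockdown group 1 or 2 libraries stood well above the rest. Its intervals were 0.707-fold to 1.17-fold in the knockdown group and 0.734-fold to 1.21-fold in the overexpression group.

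Pld6 (the mitochondrial nuclease zucchini; chr11:59783893-59787657) varied most among the well-covered genes, with a median CV within groups of 22.5% where counting error was at most 5.03%. It was at 46.4, 27.5 and 38.0 CPM in 3NC, 36.1, 46.6 and 45.9 in the knockdown group, 58.3, 35.2 and 37.3 in 5NC and 43.7, 46.0 and 31.3 in the overexpression group. Replicates of 1 group were up to 1.69 times apart (3NC), more than any pair of group means. The intervals, 0.804-fold to 1.64-fold in the knockdown group and 0.648-fold to 1.32-fold in the overexpression group, were accordingly wide.

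Of the Tudor domain proteins, Tdrd1 (chr19:56826171-56870012), which binds MILI in the intermitochondrial cement, had the smallest p of the 10 genes in any comparison. It was at 172, 195 and 180.3 CPM in 5NC and at 215, 201 and 215 CPM in the overexpression group. Every overexpression library lay above every control on this scale, but not in RPKM, where the highest 5NC library was at 41.9 and the lowest overexpression library at 41.6. The log2 fold change was 0.20 ± 0.09 (SE; 1.15-fold, interval 1.01-fold to 1.32-fold) with an unadjusted p of 0.0411 and an adjusted p of 0.394 (edgeR), so it failed the correction over all genes. Over 19 alternative settings the log2 fold change kept its sign (0.15 to 0.25) and the adjusted p ran from 0.17 to 0.854. In the other pair Tdrd1 was at 190, 163 and 204 CPM in 3NC and at 198, 207 and 203 CPM in the knockdown group, a log2 fold change of 0.13 ± 0.09 (SE) with overlapping groups. Leaving out 3NC replicate 2 gave 0.04, and leaving out 3NC replicate 3 gave 0.21 (unadjusted p 0.0475, edgeR). The groups did not overlap in CPM with no scaling factor or in RPKM, where the highest 3NC library was at 40.7 and the lowest knockdown library at 41.3. The difference between its 2 effects had an unadjusted p of 0.544 (edgeR).

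Tdrd6 (chr17:43615334-43631846), a component of the chromatoid body of spermatids, was narrowly bounded in both comparisons. Its log2 fold change was 0.00 in each, and its interval was 0.884-fold to 1.13-fold in the knockdown group and 0.882-fold to 1.13-fold in the overexpression group. Over the 12 libraries it ran from 759 CPM (3NC replicate 2) to 931 CPM (5NC replicate 1).

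The germ granule helicase Ddx4 (chr13:112598333-112652633) was at 632, 633 and 779 CPM in 3NC, 619, 647 and 659.7 in the knockdown group, 609, 774 and 714 in 5NC and 647, 636 and 786 in the overexpression group. In 3 of the 4 groups 1 or 2 libraries were high and the rest low. The log2 fold changes were -0.09 ± 0.12 (SE) in the knockdown group and -0.02 ± 0.12 in the overexpression group, with intervals of 0.786-fold to 1.13-fold and 0.823-fold to 1.18-fold. Without 3NC replicate 3 the knockdown value was 0.03. Mael (chr1:166201385-166238744) ran from 1173 CPM in 3NC replicate 2 to 1506 CPM in 3NC replicate 3, so that the whole range of the 12 libraries lay within 1 control group. Its intervals were 0.87-fold to 1.17-fold in the knockdown group and 0.90-fold to 1.20-fold in the overexpression group.

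For some of the genes the spread among replicates moved with markers of germ cell stage, and for some the lowest value lay in a library with high macrophage markers. In CPM, Ddx4 and Asz1 were highest in the same 4 libraries as the early spermatocyte markers. Sertoli cell markers were lowest in these 4 libraries, with sums of 756 to 782.3 CPM against 839.7 to 1008 in the other 8. Ddx4 stood at 714 to 786 CPM there and at 609 to 659.7 CPM in the other 8 libraries, and Asz1 at 32.7 to 35.4 CPM against 22.8 to 28.9. The remaining 8 genes did not separate these libraries in CPM scaled by TMM. In deposited RPKM Ddx4 still did and Asz1 did not (20.8 against up to 21.2), and Mael did (1002 against up to 984). Over the 12 libraries, which share their depth and scaling, Pearson's r of log2 CPM was 0.918 between Ddx4 and Asz1, and r with Sycp1, the gene of the synaptonemal complex in early spermatocytes, was 0.928 for Ddx4, 0.893 for Asz1 and -0.737 for Pld6. The early spermatocyte sum was 936 to 955 CPM in the knockdown group and 965 to 1293 CPM in 3NC, with 7 of the 8 markers lower in the knockdown group and 0 of 8 at an unadjusted p under 0.05 (edgeR; 0 adjusted), where 46.7% of all genes were higher and 5.64% had such a p. In the overexpression group 6 of the 8 markers were lower than in 5NC, and 1 of them, Spo11, the nuclease of meiotic DNA breaks, passed (log2 fold change -0.51 ± 0.09, SE, adjusted p 0.0452, edgeR), where 48.2% of all genes were higher and 0.311% passed. With this sum as a term, an alternative chosen after the data were examined, the knockdown log2 fold change of Ddx4 went from -0.09 to 0.05 that of Asz1 from -0.14 to 0.06 and that of Pld6 from 0.20 to -0.01, and 0 of 10 genes passed.

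**Figure D4:**
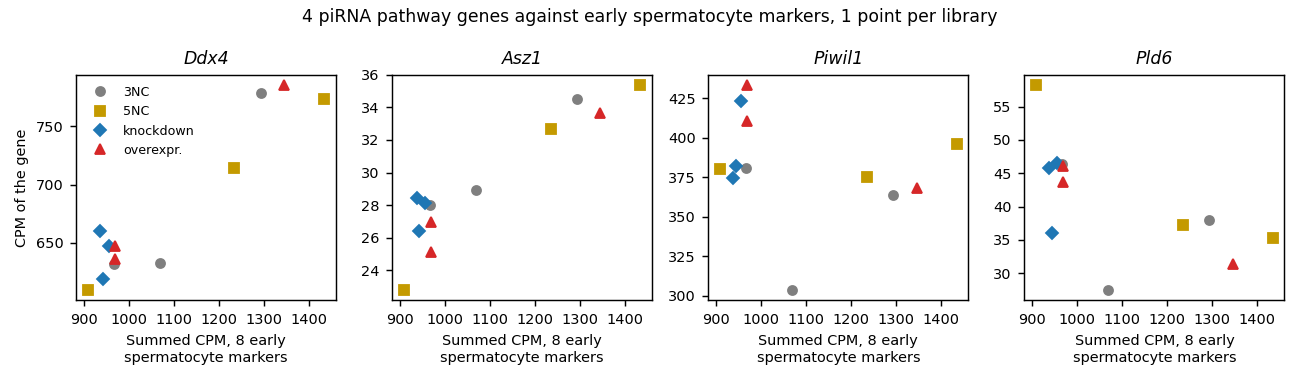
CPM of Ddx4, Asz1, Piwil1 and Pld6 against the summed CPM of 8 early spermatocyte markers, 1 point per library (axes do not start at 0). The 4 libraries with marker sums of 1234 to 1434 CPM hold the highest Ddx4 and Asz1 values, whereas Piwil1 and Pld6 were not highest in them.

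3NC replicate 2, with high macrophage markers, had the lowest CPM of the 12 libraries for Piwil1, Pld6, Tdrd1, Tdrd6 and Mael, and knockdown replicate 1, with still higher macrophage markers, for Mov10l1. 3NC replicate 2 also had the lowest summed pachytene spermatocyte markers (2795 CPM), followed by knockdown replicate 1 (3046 CPM). Its elongating spermatid sum was the lowest (17050 CPM) and its Sertoli cell sum the highest (1008 CPM). For Mov10l1, Tdrd6 and Mael 3NC replicate 2 and knockdown replicate 1 held the 2 lowest values in CPM scaled by TMM. Knockdown replicate 1 was not low for Piwil1 (382 CPM, median of the 12 libraries 380.5) or Tdrd1 (197.6, median 199.3). Pld6 was at 36.1 CPM there (median 40.8). Piwil1, Pld6, Tdrd1, Tdrd6 and Mael were lowest in 3NC replicate 2 on each of the 3 scales. Without both libraries 0 of 10 genes passed in any comparison. In the overexpression group all 8 round spermatid markers were higher than in 5NC (median log2 fold change 0.39, 5 of 8 at an unadjusted p under 0.05 by edgeR, 0 adjusted), where 48.2% of all genes were higher and 11.9% had such a p. In 5NC all 8 were lower than in 3NC (median -0.27, 4 of 8 at such a p by edgeR, 0 adjusted), where 46% of all genes were higher and 10.8% had such a p. Leydig cell markers had a median log2 fold change of -0.54 in the knockdown group against -0.02 over all genes, with 2 of 8 higher and 3 of 8 at an unadjusted p under 0.05 (edgeR, 0 adjusted, 5.64% of all genes unadjusted). Macrophage markers had a median of -1.02 in 5NC against 3NC, with 1 of 12 higher and 2 of 12 at an unadjusted p under 0.05 (edgeR, 0 adjusted, 10.8% of all genes unadjusted). Their sum was high in 3NC replicate 2 only (531.6 CPM), with 135.5 and 113.3 CPM in 3NC replicates 1 and 3 against 126.8 to 137.6 in 5NC. The part of these cell types in the values of the 10 genes was not tested beyond the terms and left-out libraries named here.

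The gene whose pattern over the 12 libraries was most like each member was found by Pearson's r of log2 CPM among all tested genes, as a description. The closest patterns were those of Asz1 with Trip4 (0.983), Pld6 with Enkd1 (0.981), Ddx4 with Cdkl2 (0.978) and Mael with Pias2 (0.957). Next were Piwil2 with Rif1 (0.939), Tdrd1 with Gm6713 (0.936), Piwil1 with Eno3 (0.934), Tdrd6 with Supt20 (0.915), Mov10l1 with Epb41l5 (0.897) and Piwil4 with Tbc1d16 (0.841). Each is the highest value among all tested genes over only 12 libraries, and the r that unrelated genes would reach was not tested. Piwil4 rests on 5 to 17 reads per library. Among the 10 genes themselves, apart from Ddx4 with Asz1, the closest were Tdrd6 with Mael (0.734) and Tdrd1 with Mael (0.724), and Pld6 and Asz1 ran in opposite directions (-0.645).

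Of 30 other piRNA genes, 29 had a row and all 29 were tested. 0 of 29 had an adjusted p under 0.05 in any comparison (edgeR, and also 0 by DESeq2 and limma). Without adjustment, 0 of 29 had a p under 0.05 in the knockdown group (5.64% of all genes), 2 in the overexpression group (11.9%) and 2 between the virus controls (10.8%). Groups did not overlap for 3 of 29 in the knockdown group (1 higher, 11.3% of all genes in either direction), 6 of 29 in the overexpression group (5 higher, 21.3% of all) and 2 of 29 between the controls (both higher, 13% of all). With no scaling factor the counts were 2, 5 and 4 (11.8%, 22.1% and 14.7% of all genes), and in RPKM 3, 7 and 6 (11.8%, 21.7% and 14.3%). The median log2 fold change of the 29 was 0.02 in the knockdown group, 0.08 in the overexpression group and -0.02 in 5NC against 3NC.

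Named in both treated groups by the rule of smallest p was Dnmt3l, the DNA methyltransferase cofactor that acts with piRNAs on transposons in prospermatogonia. Its log2 fold change was 0.40 ± 0.19 (SE) in the knockdown group (adjusted p 0.764, edgeR) and 0.45 ± 0.20 in the overexpression group (adjusted p 0.395, edgeR). Kif17, the kinesin found with the chromatoid body, was at 0.38 ± 0.15 in overexpression against 5NC and at -0.28 ± 0.15 in 5NC against 3NC, and Tdrd5, needed for pachytene piRNAs, at -0.18 ± 0.12 and 0.31 ± 0.12. Each pair of values shares the 5NC libraries. Other genes named in the knockdown group were Fkbp6, a co-chaperone of piRNA loading (0.17), Hsp90aa1, its chaperone partner (-0.24), and Stk31, a Tudor domain kinase-like protein (-0.23). Mybl1, the transcription factor of pachytene piRNA precursors, was at -0.22 in the overexpression group. Between the virus controls Exd1, a piRNA biogenesis factor, was at 0.21 and Gtsf1l, a relative of the PIWI cofactor GTSF1, at -0.33.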

How the data were processed

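Testis RNA of 12 libraries was examined. Per the study's methods, messenger RNA was enriched with oligo(dT), sequenced on an Illumina HiSeq and aligned with SOAPaligner by the authors (build mm10 in the labels). In the deposited table the values are unscaled estimated counts (17.3% of genes had a fraction in some library), and the RPKM that the authors derived. No source used here says how reads were shared among isoforms. The table also holds 18 per-sample columns of other groups and the authors' group averages, which were not used.

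Groups were taken from the sample titles. Estimated counts were rounded and filtered with filterByExpr, which left 16388 of 20788 genes. Library sizes were scaled by TMM, and the 4 group means were fitted together over all 12 libraries (edgeR 4.0.16, R 4.3.3, glmQLFit and glmQLFTest), with a biological coefficient of variation of 22.9% and 8 residual degrees of freedom. Benjamini-Hochberg adjustment ran over all tested genes (threshold 0.05). Intervals are unadjusted 95% intervals. The fit was tested on simulated data. No replicates agreed within sampling noise (chi-square per degree of freedom 3.495 to 40.23). Depth was 12719699 to 15771655 estimated reads.

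Alternatives were RLE size factors, total counts, no filter, the robust option, a replicate block, fits of each pair of groups alone, every library omitted in turn, 3NC replicate 2 and knockdown replicate 1 left out, DESeq2 1.42.0, limma-trend (limma 3.58.1) on log2(RPKM + 0.1) with and without a filter or with a pseudocount of 1, and the study's thresholds. The early spermatocyte and macrophage sums as terms, and the overlap of groups in RPKM or in CPM with no scaling factor, were chosen after the data were examined.

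The 10 genes, the lists and the motifs were chosen with earlier results of these data known. Named genes were the 10, from 30 other piRNA genes any that passed and the 2 higher and 2 lower with the smallest p per comparison of groups, and the most alike gene of each of the 10. Sycp1 and Spo11 are exceptions, picked once their values had been seen. Promoters came from RefSeq (GRCm38.p6), gene positions from the GRCm38 annotation.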

Additional observations from a re-analysis of the deposited data

How the results depend on the processing

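0 of the 10 genes and 0 of the 29 other piRNA genes passed an adjusted p of 0.05 in any comparison under any alternative that tested them, whether by edgeR, DESeq2 or limma. Piwil4, with at most 0.38 RPKM, was not tested in the limma-trend fits that used an RPKM filter. The replicate numbers did not pair the libraries (correlation of same-numbered deviations -0.606 to 0.359, and not every library correlated best with its own number), and the fit with a replicate block also gave 0, while it moved the count over all genes from 51 to 21 in the overexpression group and from 21 to 5 between the virus controls. Over all genes, DESeq2 called 16 in the knockdown group, 328 in the overexpression group and 173 between the controls where edgeR called 0, 51 and 21, and leaving out 1 library gave 0 to 12, 9 to 87 and 3 to 35. The cause was not tested. Of 802 recomputed log2 fold changes of the 10 genes, 89 changed sign, 9 of them where the value had exceeded 0.1 in size, and 15 moved by more than 1 SE. Among these, Pld6 in the overexpression group went from -0.11 to 0.15 without 5NC replicate 1, Piwil4 from -0.33 to 0.16 without 5NC replicate 2, and Asz1 in the knockdown group from -0.14 to 0.06 with the early spermatocyte term. The smallest adjusted p under any alternative was 0.368 in the knockdown group (Piwil1), 0.17 in the overexpression group (Tdrd1) and 0.386 between the controls (Tdrd6). Tdrd1 in the overexpression group had an unadjusted p under 0.05 in 10 of 19 settings, Tdrd6 between the controls in 4, Tdrd1 in the knockdown group in 2 and Piwil1 there in 1. The number of the 10 genes whose groups did not overlap went from 0, 2 and 0 (knockdown, overexpression, controls) to 2, 0 and 3 in CPM with no scaling factor and in RPKM, an alternative chosen after the data were examined, while the share of all genes stayed at 11.3% to 11.8%, 21.3% to 22.1% and 13% to 14.7%. Depth limits Piwil4, with at most 17 reads per library.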
